A study of Mus musculus with 9 samples.

Results

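Betaine given in the drinking water was compared with plain drinking water in the liver of mice that lack Cth, using 6 of the 9 RNA sequencing libraries of the series. Cth encodes cystathionine gamma-lyase, the enzyme that splits cystathionine to release cysteine and that also forms hydrogen sulfide. Both groups carried the Cth knockout: 3 libraries came from Cth knockout liver on drinking water and 3 from Cth knockout liver with betaine at 1% in the drinking water. The other 3 libraries, from wild-type liver on drinking water, entered only the check of the knockout. The labels give no age, sex or strain, do not say how the knockout was made or how long betaine was given, and do not state that the replicates were separate mice, so p-values measure only the spread between these samples, which may be technical. Levels are FPKM, read counts scaled by exon length and library size, and differences are betaine minus water on the log2(FPKM + 0.5) scale, which understates changes of low genes. Of the 54532 genes listed, 11873 averaged 0.5 FPKM or more across these libraries and were tested with limma, with Benjamini-Hochberg adjustment over all of them and a threshold of 0.05. Values of single libraries are given in the order replicate 1, 2 and 3. In these bulk samples, fewer cells of a type and less RNA per cell cannot be told apart.

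Betaine is a methyl donor made from choline by Chdh in mitochondria. In liver, Bhmt passes a methyl group from betaine to homocysteine, which gives methionine and dimethylglycine, and Mat1a then turns methionine into S-adenosylmethionine, the methyl donor of most methyltransferases, histone lysine methyltransferases included. Homocysteine that is not remethylated enters transsulfuration through Cbs and Cth, the pathway that is broken in these mice. Betaine is also an osmolyte of cells, and it is known in rodents for its effects on liver fat, which is made under the transcription factor Srebf1 and burned under the nuclear receptor Ppara.

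Cth itself was at 0.583, 0.278 and 0.770 FPKM in the knockout water libraries and 0.319, 0.309 and 0.781 FPKM in the betaine libraries, against 219 to 285.4 FPKM in wild-type liver. The transcript was thus far below the wild-type level in all 6 knockout libraries, and between them its betaine and water values overlapped (log2 difference -0.11 ± 0.28 (SE), adjusted p = 0.83). Hepatocyte transcripts dominated each library, with Alb at 18959 to 30005 FPKM over the 6. Xist was at or below 0.0124 FPKM in each of them, and 4 Y-linked genes together gave 1512 to 2393 reads, so the 6 carried one sex pattern. The FPKM steps gave back whole reads for 98.3% to 98.6% of low values (within 0.05 of a whole number, up to 20 reads), and the recovered totals were 15184966 to 17001520 reads per library. The FPKM of all genes summed to 567111, 584197 and 533733 on water and to 477667, 379601 and 455209 with betaine, so the betaine sums were the lower ones. Rescaling each library to the same sum (TPM) moves the median difference of all tested genes from -0.003 to 0.304, and list directions below are given with that shift in view.

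The 6 libraries did not fall into 2 tight groups. On the first principal component of the log2 values (48.4% of the variance) the water libraries scored -14.3, -33.4 and -22.9 and the betaine libraries 2.5, 39.7 and 28.4, so betaine replicate 1 lay between the groups. The second component (16.2%) put betaine replicate 1 at -27.9, the lowest of the 6, and betaine replicate 3 at 18.3, the highest. Betaine replicate 1 correlated at 0.970 to 0.973 with the water libraries and at 0.968 and 0.969 with the other betaine libraries, whereas betaine replicates 2 and 3 correlated at 0.977 with each other (Pearson's r across genes, which are not independent replicates). Nothing in the labels sets that library apart, and the genes below are given with it and, where they pass without it, also without it.

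**Figure D1:**
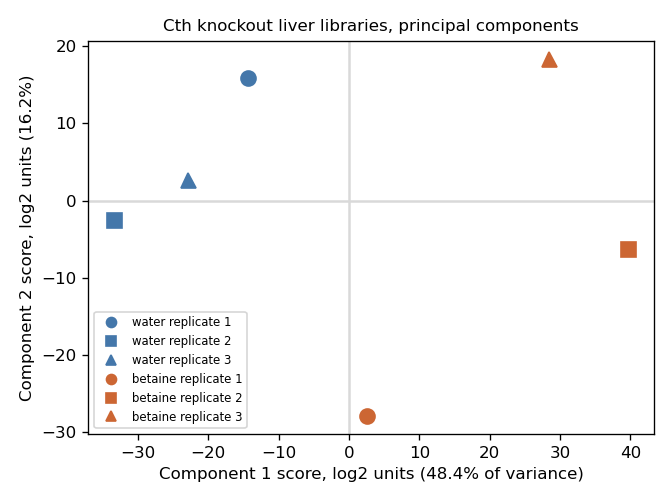
Scores of the 6 Cth knockout libraries on the first and second principal components of log2(FPKM + 0.5), in log2 units, with the share of variance in the axis labels; colour marks water or betaine and shape the replicate. Betaine replicate 1, at 2.5 on the first component, lies between the water libraries (-33.4 to -14.3) and the other betaine libraries (28.4 and 39.7).

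With all 6 libraries, 29 genes passed the threshold, 0.244% of those tested: 14 were higher with betaine (0.118%) and 15 lower (0.126%). Of the 29, 10 are predicted gene models, pseudogenes or genes without a usual symbol, and 6 more are short mitochondrial or small nucleolar RNAs or mitochondrial ribosomal RNA. The remaining 13 are protein-coding genes with usual symbols, and they include the lipid synthesis genes Srebf1 and Fasn, the interferon-stimulated genes Oasl1, Rsad2 and Ifit3, and the lipid transporter Mfsd2a. Among the 29, Gm23301, Gm26271, Gm14057, Gm48199, Gm37503 and mt-Tv averaged below 0.5 FPKM with betaine, and Gm31544, Tubb2b and Snord49a on water. These genes passed the filter through the other group alone, and their calls carry that limit, also in the fits below that leave out a library. At an unadjusted p under 0.05 the count was 3011 genes (25.4%: 12.3% higher and 13.1% lower), and in 3600 genes (30.3%) the 3 betaine values did not overlap the 3 water values.

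Leaving out betaine replicate 1 raised the count to 1849 of 11917 genes (15.5%), 866 higher (7.27%) and 983 lower (8.25%), all 29 genes among them. Each of the other 5 libraries lowered it when left out: 4 genes passed without betaine replicate 2, 17 without betaine replicate 3, and 8, 9 and 7 without water replicates 1, 2 and 3. Of the 29 genes, 2 stayed past the threshold without betaine replicate 2, 7 without betaine replicate 3, and 4, 5 and 4 without water replicates 1, 2 and 3. The mitochondrial transfer RNA mt-Tv and the small nucleolar RNA Snord49a stayed in all 6 such fits. Each had 0 reads in 1 group, where its spread is 0 at the floor, and only 12 and 10 reads in the other. They passed the filter on mean level through that other group alone, so staying in these fits is no support for either. Among 1843 genes that passed without betaine replicate 1 and were tested over all 6 libraries, that library lay on the same side of the water mean as the other betaine libraries in 1682 (91.3%), but nearer to the water mean than to theirs in 1208 (65.5%). Its median position was 0.386 on a scale where 0 is the water mean and 1 the mean of betaine replicates 2 and 3. These genes were selected by the distance of betaine replicates 2 and 3 from water. A library left out of that selection would tend to lie nearer the water mean for that reason alone. No other left-out library was placed on this scale.

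**Figure D2:**
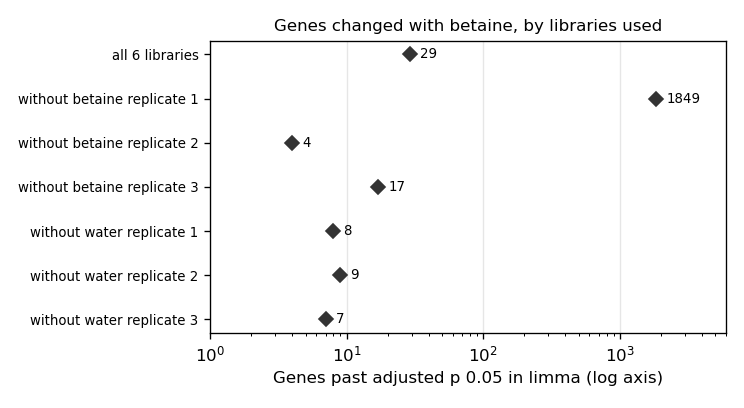
Number of genes past an adjusted p of 0.05 in limma (log axis) with all 6 libraries and with each library left out in turn. The count is 29 with all libraries, 1849 without betaine replicate 1, and between 4 and 17 without any other library.

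Fatty acid synthesis was represented among the genes that rose by its transcription factor and its main enzyme. Srebf1 (chr11:60199089-60222581, minus strand, GRCm38), which switches on the genes of fatty acid synthesis in the fed state, was at 14.9, 16.7 and 17.3 FPKM on water and 47.3, 47.4 and 33.9 FPKM with betaine. Every betaine library was above every water library, and Srebf1 rose 2.55-fold (log2 difference 1.35 ± 0.16 (SE), adjusted p = 0.0324). Fasn (chr11:120805846-120824547, minus strand), which builds palmitate, was at 19.1, 12.5 and 14.9 FPKM on water and 33.5, 43.2 and 41.9 FPKM with betaine, again without overlap, and rose 2.52-fold (log2 difference 1.33 ± 0.18 (SE), adjusted p = 0.0433). When each library was left out in turn, the log2 difference of Srebf1 ran from 1.27 to 1.51, with adjusted p up to 0.108, and that of Fasn from 1.20 to 1.49, with adjusted p up to 0.15. Betaine replicate 1 had as much Srebf1 as betaine replicate 2, and the least Fasn of its group.

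Of the 25 genes listed for fatty acid and triglyceride synthesis, 23 were tested. Srebf1 and Fasn passed, both higher, where 0.244% of all tested genes passed. Without betaine replicate 1, 10 were higher and 1 lower, against 7.27% and 8.25% of all tested genes. The list's median log2 difference was 0.64 with all 6 libraries, 0.58 without betaine replicate 1 and 0.90 after rescaling to TPM, beside -0.003, -0.002 and 0.304 over all genes tested. Acly, which makes the acetyl-CoA that Fasn uses, was at 20.7, 12.1 and 19.4 FPKM on water and 38.2, 56.6 and 46.4 FPKM with betaine. Acly had a log2 difference of 1.43 ± 0.23 (SE, adjusted p = 0.0576) that passed without betaine replicate 1, at 1.57 ± 0.24 (adjusted p = 0.0205). Gpam, which adds the first fatty acid in triglyceride synthesis, was at 3.67, 2.3 and 5.06 FPKM on water and 10.2, 51.8 and 26.3 FPKM with betaine. All 3 betaine values of Gpam exceeded the water values, but they spread widely, and the difference of 2.62 ± 0.55 (SE, adjusted p = 0.076) did not pass, but did among the 5 libraries without betaine replicate 1, at 3.22 ± 0.39 (adjusted p = 0.0195). Insig1, a Srebf target that holds back Srebf processing, was at 84.5, 47.6 and 48.3 FPKM on water and 104, 151 and 127 FPKM with betaine. For Insig1 the log2 difference was 1.11 ± 0.25 (SE, adjusted p = 0.0797), and 1.25 ± 0.27 (adjusted p = 0.0345) without betaine replicate 1. Elovl6, which lengthens palmitate, was at 6.06, 5.52 and 4.96 FPKM on water and 8.82, 11.8 and 10.9 FPKM with betaine. Elovl6 had a log2 difference of 0.86 ± 0.14 (SE, adjusted p = 0.0576), and 0.98 ± 0.13 (adjusted p = 0.016) without that library. Of the 23 genes, 16 had positive and 7 negative differences. The 1 gene lower without betaine replicate 1 was Lpin2, which makes diacylglycerol from phosphatidic acid, at 18.2, 17.5 and 19.01 FPKM on water and 11.2, 9.39 and 8.91 FPKM with betaine (log2 difference -0.86 ± 0.12 (SE), adjusted p = 0.0506), lower at -0.96 ± 0.11 (adjusted p = 0.0151) without betaine replicate 1.

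**Figure D3:**
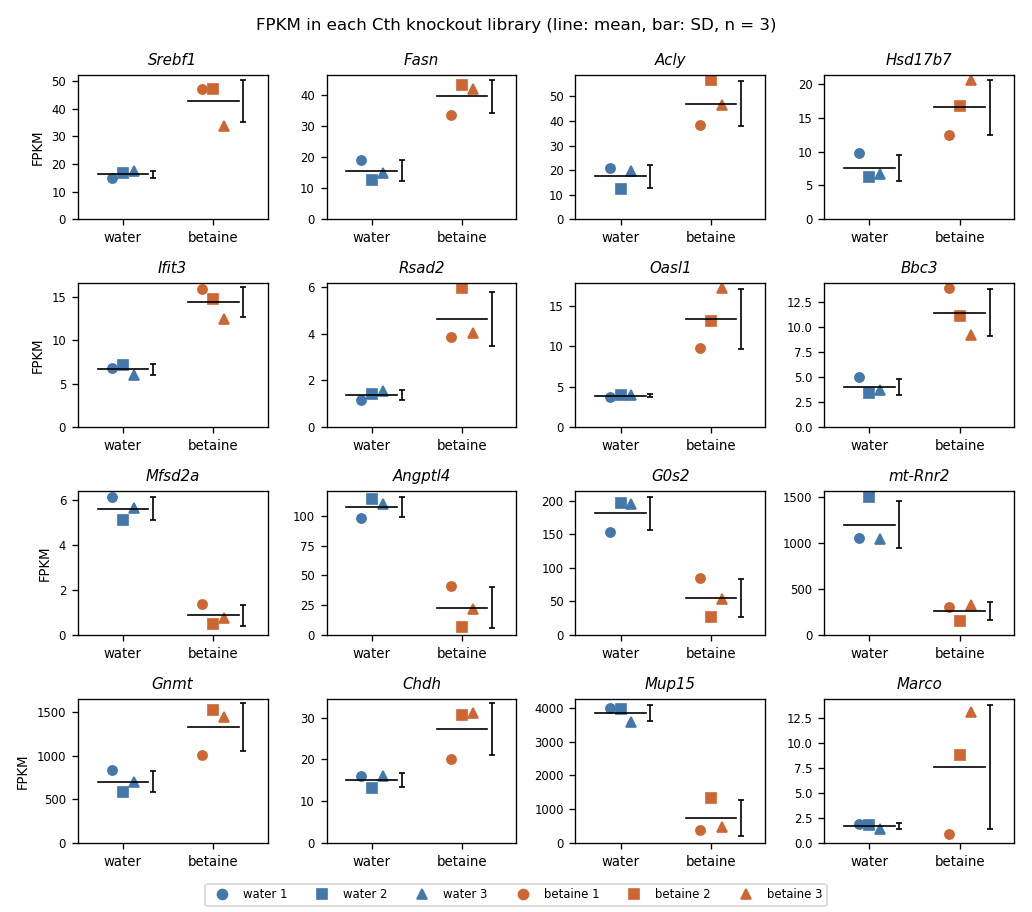
FPKM of 16 genes in each of the 6 Cth knockout libraries (linear axes from 0; shapes mark replicates, horizontal lines the mean and bars the SD of 3). Srebf1, Fasn, Ifit3, Rsad2, Oasl1 and Bbc3 rose and Mfsd2a and mt-Rnr2 fell past the threshold with all 6 libraries, while for Marco betaine replicate 1 lies below the water libraries and the other betaine libraries above them.

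In cholesterol synthesis and uptake, all 28 listed genes were tested and none passed over the 6 libraries, while 21 had positive and 7 negative differences. At an unadjusted p under 0.05, 20 were higher and 0 lower, against 12.3% and 13.1% of all genes, and the median difference was 0.73 (1.07 after rescaling to TPM). Without betaine replicate 1, 12 of the 28 passed, all higher (against 7.27% of all genes), with a median of 0.78. The list's median per library, relative to the water mean, was 0.23, -0.31 and 0.08 in the water libraries and 0.60, 0.73 and 0.87 in the betaine libraries, so each betaine library, replicate 1 included, stood above each water library. Hsd17b7, which acts in sterol synthesis after lanosterol, was at 9.86, 6.19 and 6.68 FPKM on water and 12.4, 16.7 and 20.55 FPKM with betaine. For Hsd17b7 the log2 difference was 1.08 ± 0.23 (SE, adjusted p = 0.0731), and 1.27 ± 0.21 (adjusted p = 0.0207) without betaine replicate 1. Mvk, which phosphorylates mevalonate, was at 6.28, 4.87 and 8.01 FPKM on water and 12.2, 13.6 and 17.8 FPKM with betaine. Mvk had a log2 difference of 1.14 ± 0.20 (SE, adjusted p = 0.0607), and 1.25 ± 0.22 (adjusted p = 0.0219) without that library. Fdps, which makes farnesyl diphosphate, was at 0.246, 0.1 and 0.303 FPKM on water, a mean of 0.217 and below the filter of 0.5, and 0.31, 1.18 and 1.02 FPKM with betaine. For Fdps the log2 difference was 0.84 ± 0.31 (SE, adjusted p = 0.154), and 1.17 ± 0.25 (adjusted p = 0.0305) without it. Srebf2, the transcription factor of sterol synthesis, was at 7.58, 6.69 and 6.1 FPKM on water and 9.86, 11.5 and 11.6 FPKM with betaine. Srebf2 had a log2 difference of 0.66 ± 0.13 (SE, adjusted p = 0.0671), and 0.73 ± 0.13 (adjusted p = 0.0238) without it.

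One transcript of the fasting state, Mfsd2a, fell with betaine, and several others had lower values in each betaine library. Mfsd2a (chr4:122946850-122961188, minus strand), a transporter of lysophospholipids that liver makes more of during fasting, was at 6.12, 5.11 and 5.64 FPKM on water and 1.4, 0.48 and 0.775 FPKM with betaine. The groups did not overlap, and Mfsd2a fell to a level 4.58-fold lower (log2 difference -2.20 ± 0.24 (SE), adjusted p = 0.0321). With each library left out in turn its log2 difference ran from -2.45 to -1.97, with adjusted p up to 0.079. Angptl4, an inhibitor of lipoprotein lipase and a Ppara target, was at 97.8, 114 and 109.8 FPKM on water and 40.8, 6.52 and 21.9 FPKM with betaine. All betaine values lay below all water values, yet with their spread the difference of -2.53 ± 0.57 (SE, adjusted p = 0.0833) did not pass, but did without betaine replicate 1, at -3.10 ± 0.49 (adjusted p = 0.026). G0s2, which inhibits the triglyceride lipase of lipid droplets, was at 153, 196 and 194 FPKM on water and 84.9, 27.3 and 53.4 FPKM with betaine. For G0s2 the log2 difference was -1.84 ± 0.38 (SE, adjusted p = 0.0749), and -2.22 ± 0.29 (adjusted p = 0.0185) without that library. Fgf21, a fasting hormone made in liver, was at 1.17, 4.82 and 3.53 FPKM on water and 0.375, 0.114 and 0.72 FPKM with betaine. Its betaine mean of 0.403 FPKM lay below the filter of 0.5. Fgf21 had a log2 difference of -1.92 ± 0.45 (SE, adjusted p = 0.086) that did not pass, nor without betaine replicate 1, at -1.93 ± 0.58 (adjusted p = 0.083).

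Ppara itself, the receptor that drives many of these genes, had values on the other side, 3.78, 5.22 and 6.07 FPKM on water and 6.05, 13.99 and 8.45 FPKM with betaine. Its difference of 0.80 ± 0.30 (SE, adjusted p = 0.159) passed without betaine replicate 1, at 1.07 ± 0.26 (adjusted p = 0.0434). Of the 21 genes listed with Ppara, its partners and fasting hormones, all tested, 0 passed over the 6 libraries (at an unadjusted p under 0.05, 3 higher and 7 lower, against 12.3% and 13.1% of all genes). Without betaine replicate 1, 1 was higher, Ppara, and 7 were lower (against 7.27% and 8.25% of all genes), among them 4 Cyp4a genes whose near-identical copies can share reads. The list's median was -0.47, beside -0.003 over all genes tested, and -0.11 after rescaling to TPM, beside 0.304. Cyp4a14, a fatty acid omega-hydroxylase of that group, had the widest gap between betaine replicate 1 and the other betaine libraries among the genes tested, at 31.6, 88.8 and 106 FPKM on water and 122, 7.64 and 3.33 FPKM with betaine. Its betaine replicate 1 value was the highest of the 6 and the other betaine values were the lowest, so its difference depended on that library, at -2.11 ± 1.29 (SE, adjusted p = 0.349) with it and -3.59 ± 0.62 (adjusted p = 0.0287) without it. The enzymes of fatty acid oxidation and ketogenesis, 35 tested of 36, had a median of -0.10 with 0 past the threshold (at an unadjusted p under 0.05, 4 higher and 6 lower, against 12.3% and 13.1% of all genes), and without betaine replicate 1 2 were higher and 5 lower, against 7.27% and 8.25% of all genes in that fit. After rescaling to TPM their median was 0.26, beside 0.304 over all genes.

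Interferon-stimulated genes, switched on in cells that sense type I or type III interferon, included 3 that rose with betaine. Oasl1, a relative of the oligoadenylate synthetases, was at 3.69, 4.03 and 3.94 FPKM on water and 9.76, 13.1 and 17.2 FPKM with betaine, and rose 3.09-fold (log2 difference 1.63 ± 0.19 (SE), adjusted p = 0.0324). Rsad2, which encodes the antiviral enzyme viperin, was at 1.161, 1.4 and 1.55 FPKM on water and 3.88, 5.94 and 4.01 FPKM with betaine, and rose 2.7-fold (log2 difference 1.43 ± 0.18 (SE), adjusted p = 0.0433). Ifit3, an antiviral protein with tetratricopeptide repeats, was at 6.79, 7.15 and 6.003 FPKM on water and 15.9, 14.8 and 12.5 FPKM with betaine, and rose 2.08-fold (log2 difference 1.06 ± 0.13 (SE), adjusted p = 0.0433). None of the 3 overlapped between groups, and the water libraries were close to each other in each. With each library left out in turn, the log2 difference of Oasl1 ran from 1.43 to 1.82, with adjusted p up to 0.114, that of Rsad2 from 1.25 to 1.53, with adjusted p up to 0.103 and that of Ifit3 from 0.99 to 1.15, with adjusted p up to 0.116.

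Many of these genes carry the interferon-stimulated response element in their promoters. Its core, searched as GAAA, any 2 bases and GAAA on both strands and in all overlapping positions, was found in the RefSeq promoters (GRCm38.p6, 250 bases before to 50 after the start) of Ifit3 and Rsad2 and not in that of Oasl1. The promoters of Ifit3 and Rsad2 are shown because they hold the core, with the matched bases in capitals. That of Oasl1, which also rose, is not shown. The 250 bases before each start are printed, 5′ to 3′, at chr19:34583279-34583528 on the plus strand for Ifit3 and chr12:26456453-26456702 on the minus strand for Rsad2.
Ifit3: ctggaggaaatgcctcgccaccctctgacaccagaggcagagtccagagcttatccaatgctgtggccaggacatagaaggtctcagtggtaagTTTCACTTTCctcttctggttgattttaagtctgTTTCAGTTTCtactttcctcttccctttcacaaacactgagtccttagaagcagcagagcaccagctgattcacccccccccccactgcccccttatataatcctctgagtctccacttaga
Rsad2: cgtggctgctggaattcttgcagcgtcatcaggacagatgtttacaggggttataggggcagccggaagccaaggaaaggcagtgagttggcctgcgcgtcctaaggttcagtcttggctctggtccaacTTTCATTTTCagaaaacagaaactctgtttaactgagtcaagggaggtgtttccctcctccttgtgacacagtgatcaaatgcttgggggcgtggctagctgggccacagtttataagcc
In Ifit3 the core begins at bases 95 and 129 of the window and in Rsad2 at base 131, and all 3 matches read TTTC, any 2 bases and TTTC on the printed strand, the reverse complement. Over all 32851 promoters of this length, 1131 (3.44%) held the core, and 15 of the 25 tested interferon-stimulated genes with a promoter in the table did (60.0%). A match describes the letters in the window and is not a measured binding site, and the list is one of known interferon targets.

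Of the 34 listed interferon-stimulated genes, 33 were tested, 28 with positive and 5 with negative differences, and 19 were higher and 0 lower at an unadjusted p under 0.05, against 12.3% and 13.1% of all genes. Oasl1, Rsad2 and Ifit3 passed, against 0.118% of all genes that were higher, and without betaine replicate 1 the count was 9 higher and 0 lower, against 7.27% and 8.25% of all genes in that fit. The median difference was 0.45 with all libraries, 0.61 without betaine replicate 1 and 0.74 after rescaling to TPM. Dhx58, a cytosolic RNA sensor, was at 2.04, 3.04 and 2.67 FPKM on water and 5.9, 5.49 and 6.73 FPKM with betaine and missed the threshold (log2 difference 1.10 ± 0.16 (SE), adjusted p = 0.0521), but passed without betaine replicate 1, at 1.11 ± 0.18 (adjusted p = 0.0205). Ifit1, which binds foreign RNA ends, was at 3.79, 6.13 and 3.54 FPKM on water and 11.6, 11.7 and 11.2 FPKM with betaine. For Ifit1 the log2 difference was 1.31 ± 0.19 (SE, adjusted p = 0.0526), and 1.30 ± 0.22 (adjusted p = 0.0213) without betaine replicate 1. Usp18, which removes the ubiquitin-like protein ISG15 and dampens interferon signalling, was at 4.72, 3.11 and 3.68 FPKM on water and 6.02, 7.87 and 8.68 FPKM with betaine. Usp18 had a log2 difference of 0.89 ± 0.19 (SE, adjusted p = 0.0731), and 1.03 ± 0.18 (adjusted p = 0.0209) without that library. Isg15 itself was at 14, 26.7 and 16.2 FPKM on water and 27.6, 25.4 and 30.9 FPKM with betaine and did not pass (log2 difference 0.60 ± 0.23 (SE), adjusted p = 0.161). The median of the 18 markers of Kupffer cells and macrophages was 0.13, 0.08 and -0.18 in the water libraries and -0.53, 0.60 and 0.21 in the betaine libraries. Betaine replicate 1 thus lay below every water library, and betaine replicates 2 and 3 above them. The 5 tested markers of T and NK cells had a median of 0.11, -0.07 and 0.00 in the water libraries and -0.46, 1.56 and -0.10 in the betaine libraries, and betaine replicate 2 stood apart in them. The interferon list had medians of -0.02, 0.10 and -0.14 in the water libraries and 0.32, 0.56 and 0.46 in the betaine libraries. The part of immune cells in the interferon result was not tested.

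**Figure D4:**
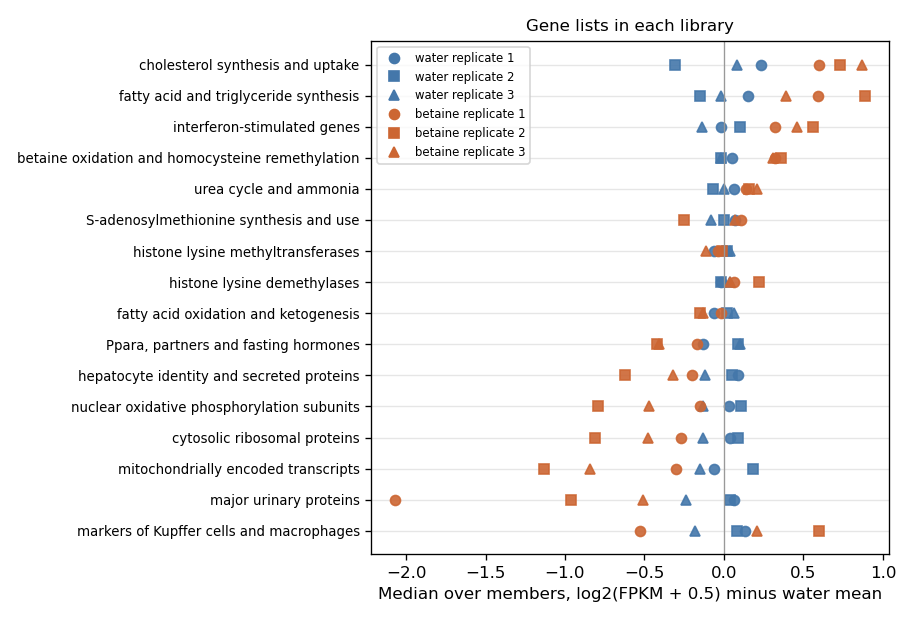
Median over the tested members of 16 gene lists in each library, as log2(FPKM + 0.5) minus the water mean of each gene; colour marks water or betaine and shape the replicate. Cholesterol synthesis, fatty acid synthesis, interferon-stimulated and betaine oxidation genes lie higher in all 3 betaine libraries than in any water library, and for the ribosomal, oxidative phosphorylation and mitochondrially encoded lists betaine replicate 2 lies lowest.

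None of the enzymes that handle betaine itself passed over the 6 libraries, although several had higher values in every betaine library. Bhmt, which uses betaine to remethylate homocysteine, was at 1261, 1091 and 1065 FPKM on water and 1659.8, 1358 and 2116 FPKM with betaine. The betaine values were all above the water values, but the difference did not pass over the 6 libraries (log2 difference 0.57 ± 0.19 (SE), adjusted p = 0.133), nor without betaine replicate 1, at 0.58 ± 0.21 (adjusted p = 0.101). Chdh, which makes betaine from choline together with an aldehyde dehydrogenase, was at 15.9, 13.1 and 15.9 FPKM on water and 20.1, 30.6 and 31.1 FPKM with betaine. Chdh had a log2 difference of 0.82 ± 0.19 (SE, adjusted p = 0.0823), and passed without betaine replicate 1, at 1.02 ± 0.13 (adjusted p = 0.0155). Bhmt2, which remethylates homocysteine with S-methylmethionine, was at 81.8, 66.8 and 74.01 FPKM on water and 93.05, 113 and 126 FPKM with betaine. For Bhmt2 the log2 difference was 0.57 ± 0.15 (SE, adjusted p = 0.0972), and 0.68 ± 0.14 (adjusted p = 0.0272) without that library. Dmgdh, which oxidises the dimethylglycine that Bhmt releases, was at 169, 159 and 132 FPKM on water and 218, 228 and 254 FPKM with betaine. Dmgdh had a log2 difference of 0.61 ± 0.14 (SE, adjusted p = 0.0833), and 0.66 ± 0.15 (adjusted p = 0.034) without it. All 12 listed genes of betaine oxidation and homocysteine remethylation were tested, and 0 passed over the 6 libraries (at an unadjusted p under 0.05, 6 higher and 1 lower, against 12.3% and 13.1% of all genes). Their median was 0.36 (0.66 after rescaling to TPM), and 8 of the 12 were without overlap on the higher side, against 15.5% of all genes. The list's median per library was 0.05, -0.02 and -0.02 in the water libraries and 0.32, 0.36 and 0.31 in the betaine libraries, and here betaine replicate 1 was level with the other betaine libraries.

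In the S-adenosylmethionine cycle, Gnmt, which consumes S-adenosylmethionine by methylating glycine, had higher values in every betaine library. It was at 833, 583 and 697 FPKM on water and 1010, 1524 and 1445 FPKM with betaine, with no overlap, a difference of 0.90 ± 0.21 (SE, adjusted p = 0.0833) that passed without betaine replicate 1, at 1.09 ± 0.18 (adjusted p = 0.0202). Mat1a, the liver form of methionine adenosyltransferase, was at 603, 588 and 541 FPKM on water and 819, 672 and 940.1 FPKM with betaine (log2 difference 0.48 ± 0.16 (SE), adjusted p = 0.134). Mat2a, the form found mainly outside hepatocytes and in growing cells, was at 16.5, 15.9 and 15.04 FPKM on water and 13.03, 8.36 and 9.64 FPKM with betaine. Mat2a had a log2 difference of -0.61 ± 0.17 (SE, adjusted p = 0.0972), lower at -0.78 ± 0.12 (adjusted p = 0.0202) without betaine replicate 1. Ahcy, which splits S-adenosylhomocysteine, was at 609, 588 and 532 FPKM on water and 637, 457 and 522 FPKM with betaine, with overlapping groups (log2 difference -0.11 ± 0.16 (SE), adjusted p = 0.704), and Pemt, which methylates phosphatidylethanolamine to phosphatidylcholine, at 165, 178 and 172 FPKM on water and 182, 118 and 144 FPKM with betaine (log2 difference -0.24 ± 0.17 (SE), adjusted p = 0.417). The 18 genes of that list had a median of -0.06, and 0 passed (at an unadjusted p under 0.05, 3 higher and 1 lower, against 12.3% and 13.1% of all genes). In transsulfuration, with 12 tested, the median was -0.11 and 0 passed (at an unadjusted p under 0.05, 1 higher and 2 lower, against 12.3% and 13.1% of all genes). Cbs, the enzyme before Cth, was at 148, 159.9 and 159 FPKM on water and 132, 108 and 130 FPKM with betaine (log2 difference -0.34 ± 0.13 (SE), adjusted p = 0.167). Cdo1, which begins the oxidation of cysteine to taurine, was at 1226, 1392 and 1106 FPKM on water and 1192, 729 and 724 FPKM with betaine. For Cdo1 the log2 difference was -0.53 ± 0.22 (SE, adjusted p = 0.19), and -0.77 ± 0.15 (adjusted p = 0.0261) without betaine replicate 1. After rescaling to TPM the S-adenosylmethionine and transsulfuration medians were 0.30 and 0.24, beside 0.304 over all genes. In the fit that left out betaine replicate 1, 1 gene of the first list was higher, Gnmt, and 1 lower, Mat2a, against 7.27% and 8.25% of all genes in that fit. In transsulfuration 1 was then higher, Suox, which oxidises sulfite, and 0 lower.

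The series names histone lysine methylation in its title, and its enzymes were compared at the level of their transcripts. Of 39 listed histone lysine methyltransferases 36 were tested, with a median of -0.06 and 0 past the threshold (at an unadjusted p under 0.05, 4 higher and 5 lower, against 12.3% and 13.1% of all genes). Without betaine replicate 1, 1 was higher and 2 were lower, against 7.27% and 8.25% of all genes in that fit. Ezh1, a catalytic subunit of the Polycomb complex PRC2, was at 1.52, 1.24 and 1.44 FPKM on water and 1.69, 2.36 and 2.42 FPKM with betaine. Ezh1 had a log2 difference of 0.48 ± 0.16 (SE, adjusted p = 0.133), and 0.61 ± 0.15 (adjusted p = 0.0383) without that library. Prdm2, a methyltransferase of histone H3, was at 6.46, 7.67 and 5.24 FPKM on water and 3.07, 2.7 and 2.89 FPKM with betaine. For Prdm2 the log2 difference was -1.03 ± 0.15 (SE, adjusted p = 0.0545), and -1.07 ± 0.17 (adjusted p = 0.0202) without betaine replicate 1. Kmt2d, which methylates histone H3 at enhancers, was at 2.48, 4.31 and 4.01 FPKM on water and 2.24, 1.7 and 1.78 FPKM with betaine. Kmt2d had a log2 difference of -0.75 ± 0.21 (SE, adjusted p = 0.0992), and -0.84 ± 0.22 (adjusted p = 0.0463) without it. Of 23 listed demethylases 22 were tested, with a median of 0.08 and 0 past the threshold (at an unadjusted p under 0.05, 3 higher and 1 lower, against 12.3% and 13.1% of all genes). With betaine replicate 1 left out, Riox2 was higher, at 1.30 ± 0.18 (adjusted p = 0.0164), and Riox1 lower, at -0.78 ± 0.15 (adjusted p = 0.0267). Riox2 was at 0.755, 0.546 and 0.647 FPKM on water and 1.13, 2.03 and 2.64 FPKM with betaine, and Riox1, its paralog, at 2.56, 2.13 and 2.03 FPKM on water and 1.09, 1.11 and 1.09 FPKM with betaine. The DNA methylation list (12 tested of 16) and the protein arginine methyltransferases (9 tested of 11) also had 0 past the threshold, with medians of -0.07 and 0.25. At an unadjusted p under 0.05 they had 1 higher and 2 lower, and 2 higher and 0 lower. Without betaine replicate 1, 1 gene of DNA methylation was higher and 1 lower, and 0 of the arginine methyltransferases passed.

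Of the transcripts made in mitochondria, a ribosomal RNA and 4 transfer RNAs passed the threshold on the lower side, the transfer RNAs with limits given below. The 16S ribosomal RNA mt-Rnr2 was at 1059, 1506 and 1051 FPKM on water and 307, 153 and 324 FPKM with betaine. The highest betaine value was below the lowest water value, and mt-Rnr2 fell to a level 4.78-fold lower (log2 difference -2.26 ± 0.31 (SE), adjusted p = 0.0434). Its log2 difference with each library left out ran from -2.45 to -1.91, with adjusted p up to 0.131. The transfer RNAs mt-Ti (log2 difference -1.89 ± 0.25 (SE), adjusted p = 0.0433), mt-Tl2 (log2 difference -1.42 ± 0.18 (SE), adjusted p = 0.0433) and mt-Th (log2 difference -1.17 ± 0.16 (SE), adjusted p = 0.0433) also passed, with differences over the fits without 1 library from -2.06 to -1.66, with adjusted p up to 0.114, from -1.53 to -1.27, with adjusted p up to 0.114 and from -1.27 to -1.05, with adjusted p up to 0.136, in that order. With each library's exon length trend removed these 3 calls ended, at -1.0 ± 0.19 (adjusted p = 0.0705), -0.54 ± 0.15 (adjusted p = 0.1) and -0.28 ± 0.14 (adjusted p = 0.259). Another transfer RNA, mt-Tv, had 12 reads in the water libraries together and 0 in the betaine libraries. Set against a floor of 3 reads over the betaine group, that is 4.83-fold lower. The ratio takes the 12 reads as exact and is not a lower bound, and mt-Tv passed the filter through the water libraries alone. These RNAs are short or lack long poly(A) tails, the libraries were made from poly(A) RNA per the labels, and the kit named there does not mark strand, so reads from overlapping transcripts of both mitochondrial strands cannot be told apart.

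The 13 mitochondrially encoded messenger RNAs, subunits of the respiratory complexes, were all tested and 0 passed over the 6 libraries. At an unadjusted p under 0.05, 8 were lower and 0 higher, against 13.1% and 12.3% of all genes, and without betaine replicate 1 8 passed, all lower, against 8.25%. Their median was -0.72 (-0.37 after rescaling to TPM), and per library -0.06, 0.18 and -0.15 in the water libraries and -0.30, -1.13 and -0.84 in the betaine libraries. Of the messenger RNAs, mt-Nd2 of complex I was at 10418, 12035 and 11566 FPKM on water and 8076, 4643 and 5636 FPKM with betaine. For mt-Nd2 the log2 difference was -0.93 ± 0.23 (SE, adjusted p = 0.0864), and -1.15 ± 0.16 (adjusted p = 0.017) without betaine replicate 1. The levels of mt-Co1 of complex IV were 23018, 27605 and 25352 FPKM on water and 20046, 12222 and 13941 FPKM with betaine. mt-Co1 had a log2 difference of -0.75 ± 0.23 (SE, adjusted p = 0.115), and -0.95 ± 0.16 (adjusted p = 0.0211) without it.

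Nuclear genes for the same complexes and for the cytosolic ribosome had lower medians as well, by amounts that depended on scaling, and none of them passed over the 6 libraries. All 74 nuclear oxidative phosphorylation genes listed were tested, with a median of -0.47: 0 passed over the 6 libraries, 47 were lower and 2 higher at an unadjusted p under 0.05, and 42 were lower and 1 higher without betaine replicate 1. Over all genes 13.1% were lower and 12.3% higher at that unadjusted p, and 8.25% and 7.27% without betaine replicate 1. Ndufa3, a small accessory subunit of complex I, was at 118, 123 and 81.5 FPKM on water and 76.1, 46.6 and 53.3 FPKM with betaine. For Ndufa3 the log2 difference was -0.87 ± 0.23 (SE, adjusted p = 0.0931), and -1.08 ± 0.20 (adjusted p = 0.0242) without that library. The 1 gene higher without betaine replicate 1 was Ndufs1, a large core subunit of complex I, at 9.96, 8.09 and 9.44 FPKM on water and 10.1, 14.6 and 12.98 FPKM with betaine. Ndufs1 had a log2 difference of 0.42 ± 0.16 (SE, adjusted p = 0.154), and 0.57 ± 0.14 (adjusted p = 0.0388) without it. All 77 cytosolic ribosomal protein genes were tested, with a median of -0.52: 0 passed, 58 were lower and 0 higher at an unadjusted p under 0.05, and 45 were lower and 0 higher without betaine replicate 1. Rpl28, of the large subunit, was at 185, 219 and 170.1 FPKM on water and 151, 76.9 and 105 FPKM with betaine. For Rpl28 the log2 difference was -0.83 ± 0.24 (SE, adjusted p = 0.109), and -1.08 ± 0.18 (adjusted p = 0.0207) without it. In TPM, beside 0.304 over all genes, the medians were -0.11 for oxidative phosphorylation and -0.17 for the ribosome, and the genes past the threshold were then higher ones, 5 and 2, with 0 lower, where 13.8% of all genes were higher and 1.05% lower. Multigene families such as the ribosomal proteins have many processed pseudogenes that can share their reads.

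Transcript length also moved with the groups. The median difference was -0.19 in the shortest of 3 groups of genes by exon length (24 to 2645 bases, 3959 genes), 0.03 in the middle group and 0.09 in the longest (5211 to 41155 bases, 3953 genes). Betaine replicate 2 was lowest for short genes, at -0.33, and highest for long ones, at 0.17. Betaine replicate 1 was at -0.06 and 0.02, within 0.06 of the water mean in both. Across 11871 genes the Spearman correlation of the log2 difference with exon length was 0.291, a description of these libraries since genes are not independent replicates. With each library's length trend removed and betaine replicate 1 left out, where 6.19% of genes were higher and 5.96% lower, 24 of the 74 oxidative phosphorylation genes, 36 of the 77 ribosomal protein genes and 7 of the 13 mitochondrial messenger RNAs were lower. Over all 6 libraries that removal left 16 genes past the threshold, 12 higher and 4 lower, 15 of them among the 29. Besides the 3 transfer RNAs, Fasn was then at 1.24 ± 0.16 (adjusted p = 0.0538), Rsad2 at 1.38 ± 0.19 (adjusted p = 0.06), Aldh1b1 at 1.34 ± 0.18 (adjusted p = 0.06) and Syt3 at -0.97 ± 0.14 (adjusted p = 0.0608).

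**Figure D5:**
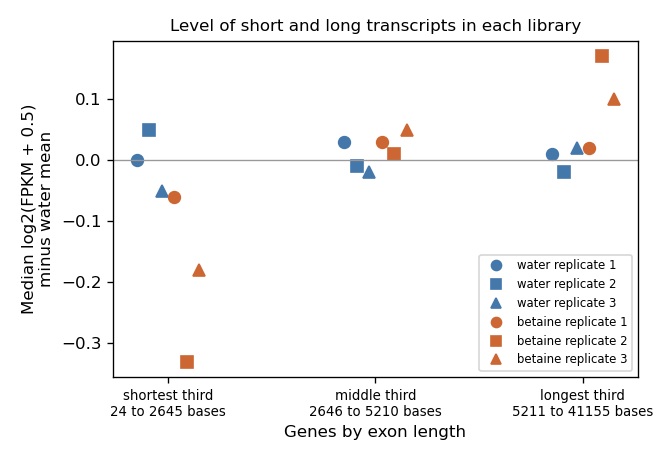
Median over genes of log2(FPKM + 0.5) minus the water mean, in each of the 6 libraries, for the 3 groups of genes by exon length, shortest, middle and longest. Betaine replicates 2 and 3 lie at -0.33 and -0.18 for short genes and at 0.17 and 0.10 for long genes, and betaine replicate 1 stays within 0.06 of 0.

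The other named genes past the threshold have varied roles. Bbc3 was the 1 gene to pass among 21 tested p53 targets and apoptosis genes, and Aldh1b1 the 1 among 18 tested genes of periportal hepatocytes, where 0.244% of all tested genes passed. At an unadjusted p under 0.05, 3 were higher and 3 lower in the former list, and 4 higher and 3 lower in the latter. Over all genes the shares were 12.3% and 13.1%. The list medians were 0.12 and 0.04. Tubb2b, a beta-tubulin, was at 0.226, 0.0614 and 0.439 FPKM on water and 2.72, 2.24 and 2.36 FPKM with betaine. It rose 4.04-fold (log2 difference 2.01 ± 0.21 (SE), adjusted p = 0.0321), though its water mean of 0.242 FPKM lay below the filter of 0.5. Bbc3, which encodes the p53-regulated apoptosis inducer PUMA, was at 4.98, 3.42 and 3.67 FPKM on water and 13.9, 11.1 and 9.26 FPKM with betaine and rose 2.63-fold (log2 difference 1.40 ± 0.19 (SE), adjusted p = 0.0433). In Bbc3 betaine replicate 1 was the highest library. Aldh1b1, a mitochondrial aldehyde dehydrogenase, was at 28.6, 18.6 and 23.2 FPKM on water and 51.9, 61.5 and 55.3 FPKM with betaine and rose (log2 difference 1.26 ± 0.17 (SE), adjusted p = 0.0433), and Spns2, a transporter of sphingosine-1-phosphate, was at 4.98, 4.49 and 4.97 FPKM on water and 9.97, 11.2 and 10.6 FPKM with betaine and rose (log2 difference 1.06 ± 0.11 (SE), adjusted p = 0.0321). Mppe1, a metallophosphoesterase that trims lipid anchors of proteins in the secretory pathway, was at 0.701, 0.667 and 0.703 FPKM on water and 2.28, 3.47 and 3.85 FPKM with betaine and rose (log2 difference 1.61 ± 0.19 (SE), adjusted p = 0.0324). The small nucleolar RNA Snord49a had 0 reads over the water libraries and 10 over the betaine libraries. Set against the floor of 3 reads over the water group, that is 2.76-fold higher, a ratio that takes the 10 reads as exact. Lurap1l was at 29.9, 28.5 and 24.7 FPKM on water and 13.6, 8.82 and 12.6 FPKM with betaine and fell (log2 difference -1.23 ± 0.18 (SE), adjusted p = 0.0488), and Syt3, a synaptotagmin, at 3.32, 3.01 and 3.85 FPKM on water and 1.45, 1.47 and 1.5 FPKM with betaine and fell (log2 difference -0.98 ± 0.13 (SE), adjusted p = 0.0434). Over the fits that each left out 1 library, the log2 difference of Tubb2b ran from 1.83 to 2.20, with adjusted p up to 0.101, that of Bbc3 from 1.25 to 1.54, with adjusted p up to 0.15 and that of Mppe1 from 1.48 to 1.80, with adjusted p up to 0.114. For Aldh1b1 it ran from 1.11 to 1.41, with adjusted p up to 0.15, for Spns2 from 1.01 to 1.10, with adjusted p up to 0.0985, for Lurap1l from -1.35 to -1.05, with adjusted p up to 0.149 and for Syt3 from -1.05 to -0.89, with adjusted p up to 0.148. Just short of the threshold lay C1qtnf12, a secreted relative of adiponectin, at 1.84, 2.17 and 1.43 FPKM on water and 0.565, 0.474 and 0.501 FPKM with betaine (log2 difference -1.18 ± 0.17 (SE), adjusted p = 0.0521), and St3gal5, which makes the ganglioside GM3, at 29.2, 35.7 and 42.3 FPKM on water and 15.5, 16.7 and 18.3 FPKM with betaine (log2 difference -1.05 ± 0.16 (SE), adjusted p = 0.0529). Both passed without betaine replicate 1, at -1.21 ± 0.19 (adjusted p = 0.0202) and -1.0 ± 0.17 (adjusted p = 0.0209).

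Hepatocyte genes were examined for a shift of the whole cell type. Of the 34 genes listed for hepatocyte identity and secreted proteins, all tested, 0 passed (at an unadjusted p under 0.05, 0 higher and 14 lower, against 12.3% and 13.1% of all genes), and without betaine replicate 1 1 was higher and 8 were lower, against 7.27% and 8.25% of all genes in that fit. Their median was -0.39, beside -0.003 over all genes, and -0.02 after rescaling to TPM, beside 0.304. Trf, which encodes the iron carrier transferrin, was at 527, 382 and 365 FPKM on water and 283, 119.8 and 198 FPKM with betaine. Trf had a log2 difference of -1.15 ± 0.31 (SE, adjusted p = 0.0992), and -1.44 ± 0.26 (adjusted p = 0.0253) without betaine replicate 1. Apoa1, the main protein of high-density lipoprotein, was at 10167, 10849 and 7616 FPKM on water and 8091, 4340.2 and 4809 FPKM with betaine. For Apoa1 the log2 difference was -0.77 ± 0.27 (SE, adjusted p = 0.141), and -1.05 ± 0.19 (adjusted p = 0.0244) without it. Apob, a long transcript for the backbone protein of triglyceride-rich lipoproteins, was at 310.1, 247 and 243 FPKM on water and 281, 425 and 395 FPKM with betaine. Apob had a log2 difference of 0.45 ± 0.19 (SE, adjusted p = 0.198), and 0.63 ± 0.15 (adjusted p = 0.0393) without it. The hepatocyte transcription factor Hnf4a was at 107, 112 and 109 FPKM on water and 81.7, 96.5 and 85.8 FPKM with betaine (log2 difference -0.31 ± 0.12 (SE), adjusted p = 0.165).

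The major urinary proteins, pheromone carriers that male mouse liver secretes under growth hormone, had the most negative list median, -1.16 over 21 tested of 22 (-0.79 after rescaling to TPM). Their copies are near-identical, so reads can be split among them and single members are uncertain. The median per library was 0.06, 0.04 and -0.24 in the water libraries and -2.07, -0.96 and -0.51 in the betaine libraries, and betaine replicate 1 was the farthest from the water libraries. None of the 21 passed over the 6 libraries (at an unadjusted p under 0.05, 0 higher and 8 lower, against 12.3% and 13.1% of all genes), and without betaine replicate 1 5 were lower, against 8.25% of all genes. The family's pseudogene Mup-ps19, not in the list, was among the 29 genes and lower, at -1.29 (adjusted p = 0.0433). Mup15 was at 4004, 3948 and 3579 FPKM on water and 388, 1336 and 485 FPKM with betaine. For Mup15 the log2 difference was -2.60 ± 0.43 (SE, adjusted p = 0.0605), and -2.25 ± 0.42 (adjusted p = 0.0296) without that library. The inducible cytochrome P450 genes Cyp2b9 and Cyp2b10, targets of the receptors CAR and PXR, also had their highest value in betaine replicate 1: Cyp2b9 was at 0.118, 1.05 and 0.0358 FPKM on water and 37.3, 7.97 and 1.46 FPKM with betaine (log2 difference 3.42 ± 1.02 (SE), adjusted p = 0.117) and Cyp2b10 at 0.385, 0.267 and 0.191 FPKM on water and 6.86, 5.19 and 1.71 FPKM with betaine (log2 difference 2.54 ± 0.42 (SE), adjusted p = 0.0605). In Cyp2b9 betaine replicate 1 stood far above the rest, and without it the difference was 2.35 ± 0.77 (adjusted p = 0.1). Cyp2b10 passed without that library, at 2.19 ± 0.39 (adjusted p = 0.0261). These 2 genes averaged 0.402 and 0.281 FPKM on water, below the filter of 0.5, and they are similar in sequence and may share reads. Cyp2b9 is also on the list of female-biased genes, where 2 of 15 were tested and 0 passed. At an unadjusted p under 0.05, 1 was higher and 0 lower, against 12.3% and 13.1% of all genes. The other tested member, Prlr, had overlapping groups (log2 difference 0.18 ± 0.19 (SE), adjusted p = 0.574).

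Further genes set betaine replicate 1 apart from betaine replicates 2 and 3. Cyp7a1, the rate-limiting enzyme of bile acid synthesis, was at 13.1, 2.87 and 5.61 FPKM on water and 2.79, 22.3 and 30.97 FPKM with betaine, with betaine replicate 1 lowest of the 6 and the other betaine libraries highest. Without it the difference was 2.03 ± 0.59 (adjusted p = 0.0781), against 1.02 ± 0.90 (SE, adjusted p = 0.509) with it. Sult2a7, a sulfotransferase, was at 10.9, 15.8 and 10.7 FPKM on water and 126, 5.36 and 14.1 FPKM with betaine, so that only betaine replicate 1 departed from the rest. Marco, a scavenger receptor of Kupffer cells, was at 1.88, 1.79 and 1.4 FPKM on water and 0.894, 8.78 and 13.1 FPKM with betaine. Marco had a log2 difference of 1.36 ± 0.77 (SE, adjusted p = 0.308), and 2.36 ± 0.20 (adjusted p = 0.00858) without that library. Adgre1, which encodes the macrophage antigen F4/80, was at 2.35, 1.37 and 1.31 FPKM on water and 1.21, 8.28 and 3.59 FPKM with betaine. For Adgre1 the log2 difference was 0.89 ± 0.55 (SE, adjusted p = 0.343), and 1.49 ± 0.37 (adjusted p = 0.0488) without it. Of the 18 markers of Kupffer cells and macrophages, 0 passed over the 6 libraries, also at an unadjusted p under 0.05, and 4 were higher without betaine replicate 1, against 7.27% of all genes.

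Over the 6 libraries 0 of the tested members passed in each of the 13 marker lists, where 0.244% of all tested genes passed. The medians were 0.19 for stellate cells and matrix (19 tested), -0.17 for sinusoidal endothelium (19), -0.02 for cholangiocytes (6) and 0.46 for T and NK cells (5). Of the markers of pancreas acini 9 of 13 were listed at 0 in all 6 libraries, and of those of gut and kidney 8 of 12. When betaine replicate 1 was left out, 2 endothelial markers, 1 marker of stellate cells and matrix and 1 of gut and kidney were lower, against 8.25% of all genes. The FPKM of the T and NK cell markers summed to 5.52, 5.51 and 4.55 on water and 4.12, 21.6 and 4.98 with betaine.

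Other metabolic lists held genes that passed without betaine replicate 1, where 7.27% of all genes were higher and 8.25% lower. Of 15 tested genes of the urea cycle and ammonia, 2 were then higher and 1 lower. In glucose metabolism and insulin signalling, with 28 tested, it was 3 and 0. Choline and phospholipid synthesis, with 19 tested, had 1 higher and 2 lower, and the 13 tested osmolyte and cell volume genes 3 and 1. The genes given here are among the higher ones. Cps1, the first enzyme of the urea cycle, was at 339.5, 225 and 311 FPKM on water and 397, 681 and 579 FPKM with betaine. Cps1 had a log2 difference of 0.91 ± 0.24 (SE, adjusted p = 0.0942), and 1.13 ± 0.20 (adjusted p = 0.0227) without that library. Pklr, the liver pyruvate kinase, was at 29.3, 21.04 and 19.2 FPKM on water and 35.1, 47.1 and 36.6 FPKM with betaine. For Pklr the log2 difference was 0.77 ± 0.19 (SE, adjusted p = 0.0863), and 0.85 ± 0.21 (adjusted p = 0.0391) without it. Pcyt1a, which controls the rate of phosphatidylcholine synthesis from choline, was at 4.26, 2.58 and 3.71 FPKM on water and 5.75, 9.94 and 8.22 FPKM with betaine. Pcyt1a had a log2 difference of 1.07 ± 0.23 (SE, adjusted p = 0.0751), and 1.27 ± 0.21 (adjusted p = 0.0202) without it. Among 13 tested osmolyte and cell volume genes, Lrrc8d, a subunit of the volume-regulated anion channel, was at 1.65, 1.76 and 2.01 FPKM on water and 3.21, 4.48 and 4.32 FPKM with betaine. For Lrrc8d the log2 difference was 0.96 ± 0.16 (SE, adjusted p = 0.0576), and 1.09 ± 0.14 (adjusted p = 0.0151) without it. In all, 58 of the 63 gene lists had 0 members past the threshold over the 6 libraries, where 0.244% of all tested genes passed. At that share most lists of these sizes would hold none, so the count does not show that they were unchanged.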

How the data were processed

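Liver RNA was poly(A)-selected and sequenced from Cth knockout mice, 3 libraries on drinking water and 3 with betaine (1%). Per the submitters' processing notes, reads went through HISAT2 2.0.5 on build mm10, featureCounts 1.5.0-p3 and, in a role not stated, DESeq2 1.16.1. The deposited table holds FPKM per gene as the authors computed them, without counts, and how their denominator was formed is not given in the sources used here. The values were log2-transformed with a pseudocount of 0.5, filtered at a mean of 0.5 FPKM over the 6 libraries, and compared with limma 3.58.1 (R 4.3.3; moderated test with mean trend and robust variance, equal library weights, no replicate block, two-sided, Benjamini-Hochberg adjustment). The test recovered changed genes in simulated data with independent noise for each gene. Those data held no library that stood apart and no length trend, so that recovery does not carry over to these libraries. Tables and plots were made with Python 3.11.15, numpy 2.4.6, pandas 2.3.3 and matplotlib 3.10.9.

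Whole reads were recovered from the FPKM steps, with recovered totals of 15184966 to 17001520, and 3 reads in a transcript of 1 kb correspond to 0.162 to 0.222 FPKM. This precision covers counting error only. Gene positions and exon lengths come from GENCODE M21 (GRCm38, the assembly of mm10), and promoters from RefSeq (GRCm38.p6). Alternatives were each library left out, pseudocounts of 0.1 and 1, other filters, TPM, quantile and median ratio scaling, removal of the exon length trend, a replicate block, estimated library weights, limma without trend or robust variance, and, chosen after seeing the data, division by each library's recovered reads, limma voom on those reads, and the TPM and length fits without betaine replicate 1.

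Genes were named by a rule: Cth; up to 12 largest rises and 12 largest falls past the threshold without overlap and with at least 1 FPKM in a group, places left over going to the smallest unadjusted p; up to 4 members of each list past the threshold, or 2 where fewer passed; Bhmt, Mat1a, Gnmt, Ahcy, Pemt, Ppara and Hnf4a; and the 8 genes with the widest gap between betaine replicate 1 and the other betaine libraries. The rule gave 151 genes. Values are printed for 77 genes, 58 from the rule and 19 chosen after their values were seen. The members and the 63 gene lists (50 of pathways, 13 of markers) were chosen with earlier results of these data known. Some members are not reported by name here.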

Additional observations from a re-analysis of the deposited data

How the results depend on the processing

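The count of 29 genes moved with most choices. Leaving out 1 library at a time gave 4 (without betaine replicate 2) to 1849 genes (without betaine replicate 1). It was 38 and 36 with pseudocounts of 0.1 and 1, and 30 with quantile and with median ratio scaling. It was 2 without a filter on low values, 80 at a mean of at least 1 FPKM, 16 with the exon length trend removed, 8 without trend or robust variance, and 1648 with estimated library weights, which were 0.452, 0.617 and 1.82 for the betaine libraries. Rescaling to TPM gave 1762, of which 92.9% were higher, and the median of all genes then moved to 0.304. Among alternatives chosen after seeing the data, division by recovered reads gave 168 genes, 75.6% higher, with a median of all genes at 0.154, voom on the recovered reads 316, TPM without betaine replicate 1 4112, 90.5% higher, and length removal without betaine replicate 1 1448. The cause of these moves was not tested.

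With a replicate block 3 genes passed, 1 higher and 2 lower. The labels do not state that replicate numbers pair the samples. Deviations of same-numbered water and betaine libraries correlated at -0.22, -0.16 and -0.03, and no library correlated best with its own number. Within each group the deviations of a gene cancel out, so with so few libraries these correlations cannot decide whether samples were paired.

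Some genes changed sign, most of them with small differences over the 6 libraries. Cth ran from -0.31 to 0.00 over the fits without 1 library, the latter without betaine replicate 2, and was at 0.06 in TPM, 0.09 with library weights, and 0.19 in TPM and 0.04 after length removal without betaine replicate 1. Ahcy ran from -0.24 to 0.00 over those fits, the latter without betaine replicate 2, and was at 0.26 in TPM, 0.17 with quantile scaling, 0.08 by recovered reads and 0.20 in TPM without betaine replicate 1. Pemt was at 0.13 in TPM, 0.00 with quantile scaling and 0.03 in TPM without betaine replicate 1, Cbs at 0.03 and 0.04 in both TPM fits, and Hnf4a at 0.05 and 0.17 in them. Sult2a7, where only betaine replicate 1 departed from the rest, was not near 0, at 0.79 ± 1.02 (SE, adjusted p = 0.661) over the 6 libraries. Sult2a7 ran from -0.47, without betaine replicate 1, to 1.75, and was at -0.06 in TPM and -0.19 after length removal without that library. Of the results computed under these alternatives, 1169 kept their direction and their side of the threshold, 20 reversed, 279 passed the threshold where the reported value did not, and 142 no longer passed it. Depth limits values under about 0.162 to 0.222 FPKM for a transcript of 1 kb.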

Other observations

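Lists outside the comparisons above also held genes that passed without betaine replicate 1. In purine synthesis, which draws on one-carbon units, 15 genes were tested, 0 passed over the 6 libraries (at an unadjusted p under 0.05, 4 higher and 0 lower, against 12.3% and 13.1% of all genes) and 3 were higher without betaine replicate 1, where 7.27% of all genes were higher and 8.25% lower. Atic, which adds the last formyl group of the purine ring, was at 2.39, 1.88 and 1.89 FPKM on water and 3.35, 3.87 and 4.58 FPKM with betaine (log2 difference 0.79 ± 0.16 (SE), adjusted p = 0.0671, and 0.89 ± 0.16 (adjusted p = 0.0225) without that library). Among 25 tested glucuronosyl- and sulfotransferases, 6 were higher and 1 lower without it, against the same shares. Of 29 genes of endoplasmic reticulum stress, 4 were higher and 1 lower without it, against the same shares, and Dnajb9, a chaperone partner of BiP, was at 22.9, 15.95 and 13.7 FPKM on water and 18.7, 32.9 and 33.5 FPKM with betaine (log2 difference 0.67 ± 0.27 (SE), adjusted p = 0.18, and 0.94 ± 0.21 (adjusted p = 0.0336) without it). Ccnd1, the cyclin that starts the cell cycle, was at 0.911, 0.629 and 0.627 FPKM on water and 0.731, 3.94 and 2.02 FPKM with betaine (log2 difference 0.98 ± 0.43 (SE), adjusted p = 0.207, and 1.46 ± 0.26 (adjusted p = 0.0231) without it). Of 19 tested ATF4 targets and 17 tested immediate-early genes, 0 passed with or without that library. At an unadjusted p under 0.05 over the 6 libraries, 0 were higher and 5 lower in the former, and 4 higher and 1 lower in the latter, with medians over the 6 libraries of -0.23 (0.08 in TPM) and 0.42 (0.63 in TPM).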
